A study of Saccharomyces cerevisiae with 2 samples.

Results

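The longest intergenic open reading frames (IGORFs) of the yeast Saccharomyces cerevisiae were the 418 frames above 300 nt, of 78989 IGORFs in all. They were picked by length alone, computed as end minus start plus 1 from the coordinates in their identifiers, and the same 418 were listed for both libraries. An IGORF here is a stretch between neighbouring in-frame stop codons, with its closing stop included. All 78989 have this form in the R64 reference sequence, with 0 inner stops, so an IGORF need not hold a start codon. The study made 2 replicate ribosome profiling libraries of BY4742, a haploid laboratory strain, from mid-exponential cultures in synthetic medium that received cycloheximide, a blocker of elongation, at 50 µg/mL, to look for translation outside annotated genes. Both libraries form 1 group with no other condition, so no conditions were compared. Whether each replicate was a culture of its own is not stated, so their spread may be technical. IGORF reads numbered 4057 (replicate 1) and 15116 (replicate 2), and reads of annotated coding sequences (CDSs) 23437283 and 2733591.

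Ribosome profiling sequences the mRNA fragments that ribosomes protect, so reads in a frame outside a gene can mark translation there. In yeast such reads are best known from short upstream frames in mRNA leaders, some of which control the gene that follows. Stop-to-stop frames outside genes have been proposed as raw material from which genes arise de novo, and long ones can also be remnants of older genes or of Ty retrotransposons.

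The 3 long IGORFs with the most reads lie on chromosomes IV and XIV. The first lies on the minus strand of chromosome IV (1258347 to 1258676, 330 nt), 290 nt before IAT4, which encodes an N-acetyltransferase, and 19 nt from SPT3, a subunit gene of the SAGA coactivator, on the other strand. The second lies on the minus strand of the same chromosome (1242167 to 1242499, 333 nt), 135 nt before ATO3, which encodes a membrane protein linked to ammonium export. The third (chromosome XIV, 174315 to 174641, minus strand, 327 nt) ends on the first base of NRD1, which encodes a factor of transcription termination, and holds no in-frame ATG. The first, the second and one 70 nt before PTP2, a tyrosine phosphatase gene, hold an ATG-led frame shorter than the IGORF, shown with its ATG and stop in capitals. For NRD1 the last bases are shown, with the IGORF's stop and the start codon of NRD1 in capitals, which share 1 base. Sequences were read 5′ to 3′ from R64.
IAT4 side, chrIV:1258347-1258499, minus strand: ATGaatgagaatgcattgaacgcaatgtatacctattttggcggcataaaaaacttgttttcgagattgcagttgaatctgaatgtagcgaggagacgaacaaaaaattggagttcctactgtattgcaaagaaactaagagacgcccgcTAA
ATO3 side, chrIV:1242167-1242253, minus strand: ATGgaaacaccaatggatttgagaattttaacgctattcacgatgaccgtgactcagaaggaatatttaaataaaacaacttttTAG
PTP2 side, chrXV:733657-733854, plus strand: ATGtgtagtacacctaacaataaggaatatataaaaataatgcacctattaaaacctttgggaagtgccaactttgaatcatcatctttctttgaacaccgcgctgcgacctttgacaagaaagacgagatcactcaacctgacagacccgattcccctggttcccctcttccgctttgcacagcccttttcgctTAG
NRD1 start, chrXIV:174313-174374, minus strand: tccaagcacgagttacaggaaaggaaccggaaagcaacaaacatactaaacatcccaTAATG

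Most long IGORFs had no read. Of the 418, 344 were listed at 0 in both libraries and 74 had a read in either. Replicate 1 gave 34 reads in 24 of them, and replicate 2 gave 154 reads in 62. These are 5.74% of the long IGORFs in replicate 1 (95% exact binomial interval 3.71% to 8.42%) and 14.8% in replicate 2 (11.6% to 18.6%), a mean of 10.3% ± 6.43 (SD, n = 2). Over all IGORFs the shares were 2.07% and 4.89%, and among the 78571 of 300 nt or less, the shorter IGORFs, they were 2.05% and 4.83%. A count of 0 in a frame allows up to 3 reads, and such limits and intervals express counting error alone, because the reads carry no molecular identifiers.

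Long IGORFs were detected more often than shorter ones, but held fewer reads for their length. The share with a read was 1.48% and 3.54% at 63 to 99 nt, 2.39% and 5.47% at 102 to 150 nt, 3.40% and 7.54% at 153 to 201 nt, and 4.17% and 11.4% at 204 to 300 nt, in replicates 1 and 2. The exact 95% intervals at 204 to 300 nt, 3.53% to 4.88% and 10.3% to 12.5%, overlapped those of the long IGORFs. A longer frame offers more places for a read. Per kilobase, the long IGORFs had 0.230 reads in replicate 1 and 1.04 in replicate 2, against 0.479 and 1.78 in the shorter ones. From the shortest class up to 204 to 300 nt, the values were 0.583, 0.429, 0.360 and 0.394 in replicate 1. In replicate 2 they were 2.30, 1.40, 1.22 and 1.73, so reads per kilobase did not fall steadily with length. The ratio of long to shorter was 0.480 and 0.584, or 0.532 ± 0.0739 (SD, n = 2). The IGORF with the most reads of all, a 69 nt frame before the transporter gene PDR5, holds 658 and 3344 reads of the shorter set, and without it the ratios were 0.574 and 0.752. Without the 3 most read long IGORFs, left out of the long side alone, which could only lower it, the mean ratio was 0.337. Long IGORFs made up 0.529% of IGORFs and 1.73% of their length, and took 0.838% (95% exact interval 0.581% to 1.17%) and 1.02% (0.865% to 1.19%) of IGORF reads. These intervals overlap, whereas per 1000000 CDS reads the long IGORFs had 1.45 reads in replicate 1 and 56.3 in replicate 2, so their level relative to genes differed between the libraries. All IGORFs together shifted the same way, with 4057 reads beside 23437283 CDS reads in replicate 1 and 15116 beside 2733591 in replicate 2. The shift is therefore not particular to the long ones.

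**Figure D1:**
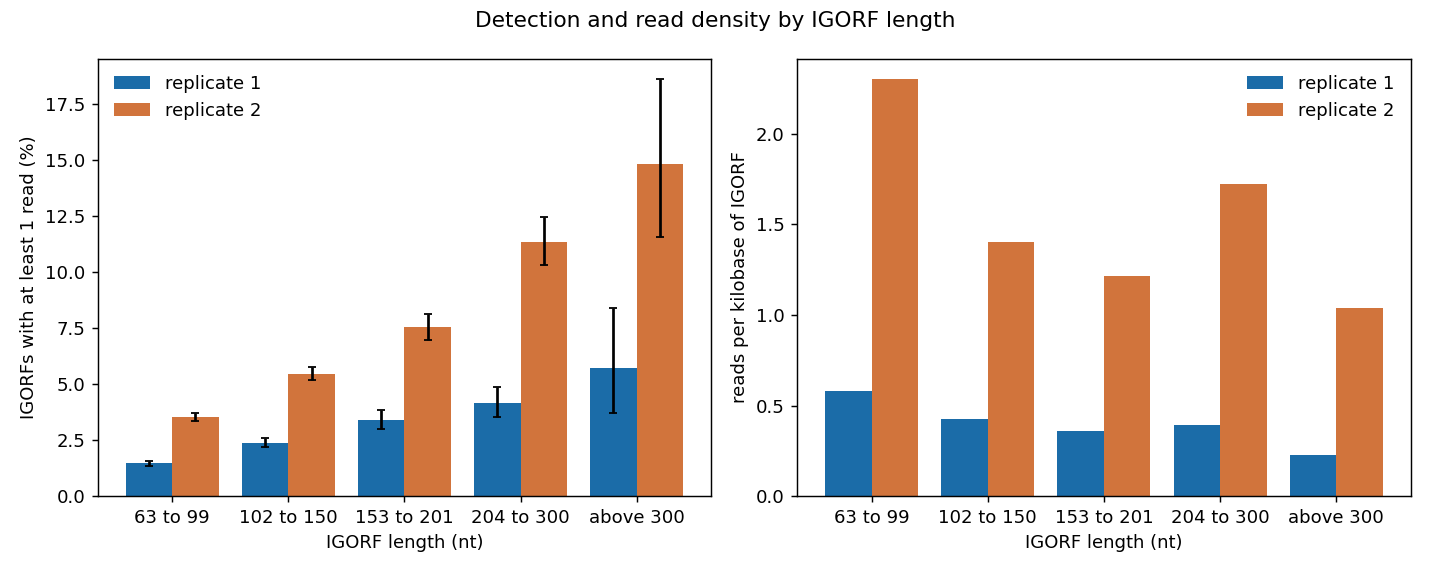
Left: percent of IGORFs with at least 1 read by length class (nt), for replicate 1 and replicate 2, with 95% exact binomial intervals of counting error. Right: reads per kilobase in the same classes. The percent detected is highest above 300 nt, at 5.74% and 14.8%, and the reads per kilobase are lowest there, at 0.230 and 1.04.

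CDSs had far more reads for their length. The 3058 CDSs of 303 to 1335 nt, the same range as the long IGORFs, had medians of 865 and 57.7 reads per kilobase, where the median long IGORF had 0 in both libraries. Their median length was 810 nt, against 330 nt for the long IGORFs, so the 91.9% and 85.7% of these CDSs with a read are not shares at matched length.

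Most detected long IGORFs held 1 read. In replicate 1, 19 of the 24 detected held 1 read, 4 held 2 and 1 held 7. In replicate 2, 41 of the 62 held 1 read, 12 held 2, and 9 held 3 or more. Over all IGORFs, 1079 of the 1632 detected in replicate 1 and 2320 of the 3859 in replicate 2 held 1 read. Single reads were thus the general pattern and not a trait of the long frames. At least 10 reads were reached by 0 long IGORFs in replicate 1, by 3 in replicate 2 and by 0 in both. Over all IGORFs the shares that reached 10 reads were 0.0481% and 0.241%, and 0.0367% in both. The 3 most read held 10 of the 34 reads and 67 of the 154, so the larger part of the reads, 24 and 87, was spread over 21 and 59 other frames. Of the 24 detected in replicate 1, 12 were also detected in replicate 2, or 50.0%, against 12.7% of the 394 that replicate 1 missed. Among shorter IGORFs these shares were 54.9% and 3.79%. Detection in both libraries was found for 12 of the 418 long IGORFs, against 895 of all 78989 IGORFs, or 1.13%. At 204 to 300 nt, the nearest length class, it was found for 85 of 3480.

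The IGORF on the IAT4 side had 7 reads in replicate 1 and 31 in replicate 2, which is 21.2 and 93.9 reads per kilobase. Its ATG-led frame of 153 nt takes up the last part of the 330 nt. IAT4 itself had 597 and 88 reads in its CDS. A long IGORF on the plus strand, over 242 nt of the same DNA (1258220 to 1258588), was listed at 0 in both libraries, so all reads counted in this pair were on the minus strand. A shorter minus-strand IGORF in another frame (1258300 to 1258491, 192 nt) had 4 and 1 reads.

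The IGORF on the ATO3 side had 2 and 23 reads, and the ATO3 CDS had 947 and 94. A further long IGORF in another frame of the same strand (1242180 to 1242698, 519 nt, no in-frame ATG) shares 320 nt with it and had 0 and 5 reads. The shorter of these overlapping frames thus had more reads in both libraries. Since the tables give no positions of reads, where within a frame they lie is unknown.

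The IGORF at NRD1 had 1 and 13 reads, and NRD1 itself had 2989 and 161. Inside it lies a shorter IGORF in another frame (174400 to 174603, 204 nt), which had 3 and 73 reads, more than the long frame around it in both libraries.

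Below these 3, no long IGORF exceeded 2 reads in replicate 1 or 5 in replicate 2. The one 115 nt before SAC7, a gene for a GTPase-activating protein of Rho1 (chromosome IV, 1252044 to 1252421, plus strand), had 2 and 4 reads and holds no in-frame ATG, and the SAC7 CDS had 943 and 65. The one before PTP2 (chromosome XV, 733525 to 733854), whose ATG-led frame is shown with the others, had 2 and 2, and the PTP2 CDS had 222 and 30. Others of the 10 most read had reads in replicate 2 alone, as the longer ATO3 frame did. The frame 50 nt before ART10 (chromosome XII, 906356 to 906673) had 3 reads, and the ART10 CDS had 461 and 14. The frame 430 nt before PDR5 (chromosome XV, 619074 to 619409) also had 3 reads, where the most read IGORF of the series lies between it and the gene, whose CDS had 10783 and 570 reads.

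**Figure D2:**
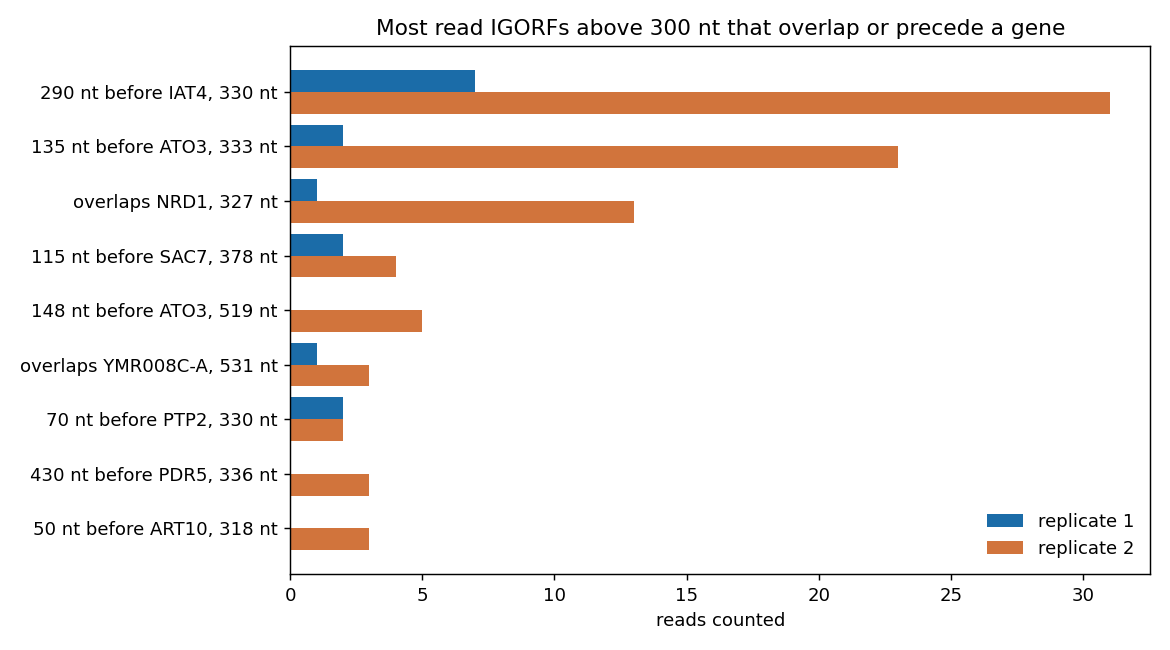
Reads counted in replicate 1 and replicate 2 for 9 of the 10 long IGORFs with the most reads, those that overlap a gene on their own strand or lie shortly before one (50 to 430 nt), named by that gene and with their length. The 3 uppermost reach 31, 23 and 13 reads in replicate 2, and none of the others exceeds 5.

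For every IGORF that averaged 10 reads or more, its split of reads between the libraries was set against the IGORF totals in an exact binomial test, two-sided. It compares 2 replicate libraries, not conditions. Only 2 long IGORFs had enough reads, and 0 of them differed after Benjamini-Hochberg adjustment or at an unadjusted p under 0.05, where 49.0% of the 96 IGORFs tested differed after adjustment and 52.1% before it. For the IAT4 side, the share of IGORF reads was 1.19-fold in replicate 2 over replicate 1 (95% exact interval 0.513 to 3.20, exact binomial adjusted p = 0.92). For the ATO3 side it was 3.09-fold (0.763 to 27.0, exact binomial adjusted p = 0.205), a wide interval from 25 reads. With CDS totals, TMM or DESeq2 scaling both differed and were higher in replicate 2, so the call changed with the scaling. Most IGORFs tested were called under these scalings too: 96.9% of the 96 were higher in replicate 2 with CDS totals, and 78.1% and 77.1% differed with TMM and DESeq2 scaling. At these shares, 2 of 2 says little about the long IGORFs.

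The share of long IGORFs beside or over a gene on their own strand was close to that of shorter ones, but fewer of them lay downstream. A CDS on the same strand was overlapped, or lay within 200 nt, for 149 of the 418, or 35.6%, against 36.3% of the shorter IGORFs. Upstream of such a CDS only lay 20.3% of the long and 17.3% of the shorter IGORFs, and downstream only 6.22% and 13.3%. Near a CDS on the other strand only lay 23.9% and 25.7%, and 40.4% and 38.0% were farther from any CDS. These shares are given without a test.

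Overlap with a CDS on the same strand was seen for 15 long IGORFs, or 3.59%, against 0.991% of the shorter ones. In 11 of the 15 the IGORF ran over the first 1 to 23 nt of the CDS in another frame, in 3 it began in the last 16 to 41 nt, and 1 held a whole CDS. The 11 had 3 and 20 reads together, of which the IGORF at NRD1 gave 1 and 13. Reads per kilobase by position were highest here, at 1.11 and 3.81, followed by 0.326 and 1.57 for the 85 upstream only. The 100 near opposite-strand genes had 0.292 and 1.49. Single frames carried much of this: the IGORF at NRD1 gave 1 of 7 and 13 of 24 reads of the overlapping class, the ATO3 side 2 of 10 and 23 of 48 of the upstream class, and the IAT4 side 7 of 10 and 31 of 51 near opposite-strand genes. Without the most read frame of each class the values were 1.01 and 1.84 overlapping a CDS, 0.264 and 0.825 upstream only, and 0.0885 and 0.590 near opposite-strand genes. The 169 farther away had 0.0838 and 0.386. Among shorter IGORFs the values were 2.89 and 8.50 for those overlapping a CDS, 1.54 and 5.43 upstream only, 0.139 and 0.687 near opposite-strand genes and 0.270 and 1.07 farther away. Upstream long IGORFs thus had fewer reads per kilobase than upstream shorter ones in both libraries, where the 69 nt frame before PDR5 gave 658 of the 2262 and 3344 of the 7990 upstream reads of the shorter set.

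**Figure D3:**
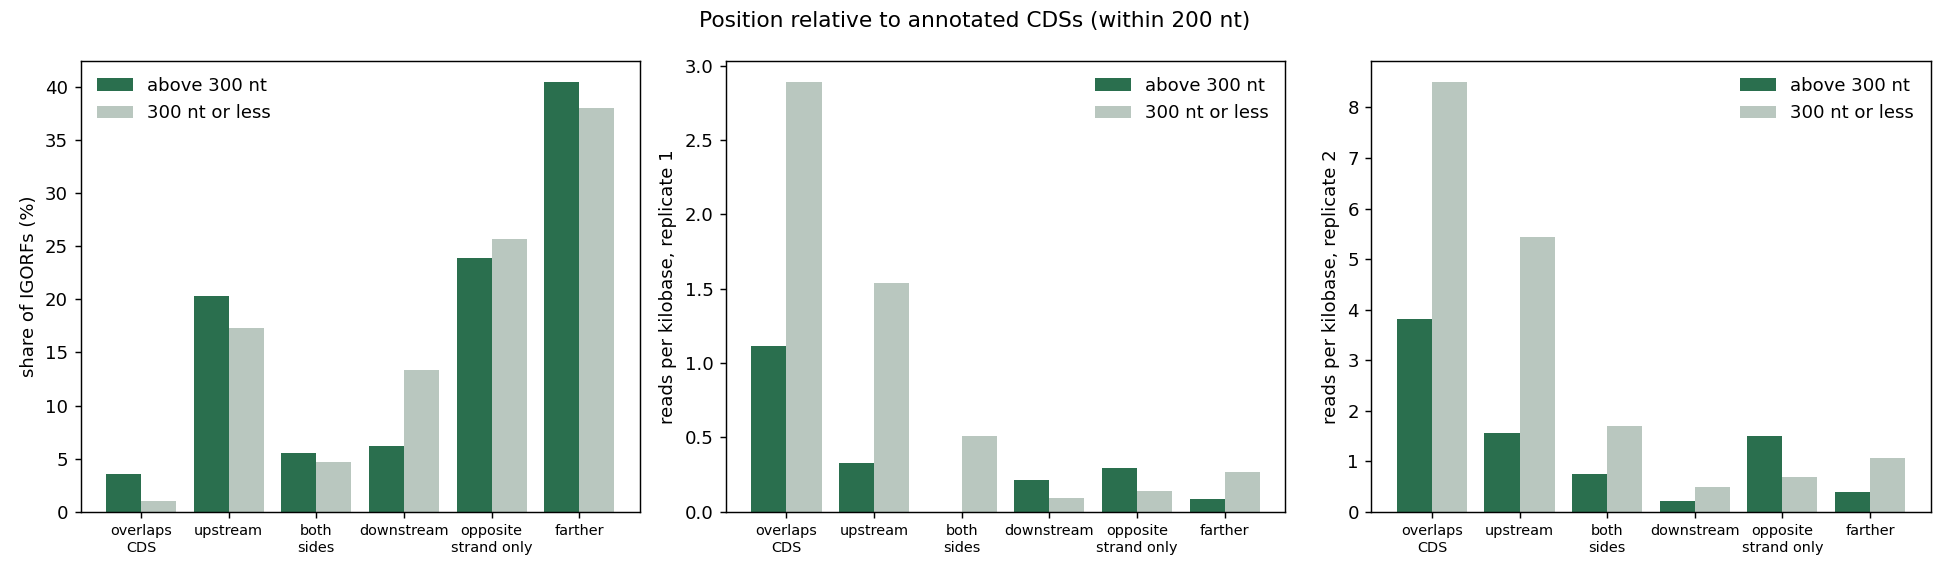
Left: percent of long IGORFs (above 300 nt) and of shorter IGORFs (300 nt or less) in each position class, within 200 nt of annotated CDSs. Middle and right: reads per kilobase in the same classes for replicate 1 and replicate 2. Frames that overlap a same-strand CDS have the most reads per kilobase in both sets, 1.11 and 3.81 for the long ones.

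The pair of IGORFs above 1000 nt matched retrotransposon proteins. The longest (chromosome XII, 219386 to 220720, minus strand, 1335 nt) carries a complete Ty1 Gag frame. Its translation matches the annotated Gag protein YDR316W-A over all 440 residues at 100% identity, and it reaches 53 nt into an annotated Ty1 long terminal repeat. It was listed at 0 reads in both libraries. The next (chromosome IV, 804477 to 805688, plus strand, 1212 nt) matches residues 435 to 818 of a Gag-Pol polyprotein at 99.0% identity and begins 41 nt before the end of the Gag gene YDR170W-A. It had 2 reads in replicate 1 and 0 in replicate 2. The genome holds 27 other copies of the first and 32 of the second, at 95% identity over 90% of the length, and how reads with several positions were counted is not given in the sources, so a 0 in these frames may not reflect their level. Of the 18 long IGORFs with such a copy, 12 lay within 30 kb of a chromosome end, and together they had 2 and 0 reads.

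Only 7 of the 418 translations, or 1.67%, matched an annotated protein at a blastp E-value of 1e-5 or less. Besides the pair of Ty frames these include stretches like known genes. An IGORF on chromosome V (289528 to 289908, plus strand, 381 nt), 333 nt before RRT13, matches residues 364 to 447 of CDC4, the F-box subunit of an SCF ubiquitin ligase, at 78.6% of 84 residues and 86.9% of 252 nt. An IGORF near the end of chromosome XV (2108 to 2623, minus strand, 516 nt), 29 nt before AAD15, matches residues 19 to 187 of RDS1, a zinc cluster transcription factor, at 95.3% of 169 residues and 97.6% of 507 nt. The first 90 nt of each match are shown with the bases that differ in capitals, 14 for CDC4 and 6 for RDS1, because they show how near each IGORF is to its gene.
IGORF like CDC4, chrV:289654-289743, plus strand: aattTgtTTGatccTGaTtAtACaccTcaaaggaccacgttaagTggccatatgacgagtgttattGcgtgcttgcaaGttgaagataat
CDC4, chrVI:117234-117323, plus strand: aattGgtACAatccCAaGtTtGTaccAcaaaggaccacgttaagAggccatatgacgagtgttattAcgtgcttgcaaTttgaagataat
IGORF like RDS1, chrXV:2534-2623, minus strand: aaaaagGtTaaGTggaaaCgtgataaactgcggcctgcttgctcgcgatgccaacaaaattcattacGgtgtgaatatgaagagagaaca
RDS1, chrIII:311012-311101, plus strand: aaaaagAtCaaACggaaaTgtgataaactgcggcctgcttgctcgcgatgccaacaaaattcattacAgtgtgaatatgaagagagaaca

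The IGORF like CDC4 had 1 read in each library, and that like RDS1 was listed at 0 in both. The matching genes were read, CDC4 with 610 and 64 reads and RDS1 with 70 and 7. The frame like RDS1 has 1 other copy in the genome by the measure used for the Ty frames. Since it matches RDS1 at 97.6% of 507 nt, reads may fit both, and how such reads were counted is not given. Its 0 and the reads of RDS1 may therefore not reflect the level of each. Another match was a whole gene of the R64 annotation. The IGORF on chromosome XIII (283081 to 283611, minus strand, 531 nt) holds YMR008C-A, an uncharacterized gene of 155 residues, at 100% identity, and had 1 and 3 reads. Its first 63 nt lie before the ATG of that gene, which stands in capitals.
IGORF with YMR008C-A, chrXIII:283540-283611, minus strand: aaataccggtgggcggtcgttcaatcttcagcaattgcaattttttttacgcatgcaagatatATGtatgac
The remaining matches were weaker. An IGORF on chromosome VI (191915 to 192259) matched YIL059C at 44.7% over 47 residues, and one near the end of chromosome XV (12162 to 12515) matched YAL067W-A at 55.8% over 77 residues. Both were listed at 0 reads.

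Of the 5 longest IGORFs, the other 3 matched no annotated protein. They lie on chromosome I (12440 to 13054, 615 nt) with no in-frame ATG, on chromosome XV (989010 to 989606, 597 nt), 227 nt before the proline permease gene PUT4, and on chromosome IV (1164727 to 1165260, 534 nt), 66 nt before the glucose transporter gene HXT3. None had a read in replicate 1, and in replicate 2 the frame before HXT3 had 1 read and the others 0.

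Many long stop-to-stop frames had only a short ATG-led part. An in-frame ATG was present in 314 of the 418, or 75.1%, against 43.8% of the shorter IGORFs. This share rose with length, from 36.2% at 63 to 99 nt to 71.3% at 204 to 300 nt, so the nearest length class was close to the long IGORFs. The median distance from the first in-frame ATG to the stop was 171 nt (quartiles 10.5 and 251 nt, with 0 for frames without ATG). At least 150 nt followed the ATG in 224, or 53.6%, and at least 300 nt in 11. Of those 11, 3 were the Ty frames and YMR008C-A, and the 8 with no match had 0 and 2 reads together. The longest of the 8, on the plus strand of chromosome I (177061 to 177450), has 357 nt from ATG to stop and lies 37 nt from PAU7 on the other strand. The next have 351 nt, 149 nt before the glucose repressor gene MIG2, and 345 nt, 345 nt before OLE1, which encodes the fatty acid desaturase. All 3 were listed at 0 reads in both libraries. The start of the 357 nt frame is shown because it is the longest ATG-led frame without an annotated counterpart.
PAU7 side, chrI:177094-177183, plus strand: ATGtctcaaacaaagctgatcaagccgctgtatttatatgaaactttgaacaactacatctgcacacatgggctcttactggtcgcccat

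Frames with and without an ATG were both read. The 314 with an ATG had 0.272 and 1.09 reads per kilobase and 61 with a read in either library, or 19.4%. The 104 without had 0.106 and 0.903 reads per kilobase and 13 with a read, or 12.5%. The exact intervals of the shares detected overlapped in both libraries, at 4.19% to 10.0% against 0.599% to 8.20% in replicate 1 and at 11.8% to 20.1% against 6.83% to 20.4% in replicate 2.

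Around the ATG, the long IGORFs were nearer to shorter IGORFs than to genes. The base 3 nt before the first ATG was A in 33.8% of the long IGORFs that hold one and in 32.2% of the shorter ones, against 62.5% of the CDSs of 303 to 1335 nt, where an A in this place is known to favour initiation. In median GC content they were nearer to genes, but this median rose with length over all IGORF classes. It was 34.8% at 63 to 99 nt, 36.0% at 102 to 150 nt, 36.8% at 153 to 201 nt and 38.0% at 204 to 300 nt. The median GC content was 39.9% in long IGORFs (quartiles 36.7% and 43.8%), 35.7% in shorter ones (31.2% and 40.2%) and 40.5% in those CDSs (38.3% and 43.2%). The median share of the hydrophobic residues V, I, L, F, M, Y and W in the translation was 37.9% in long IGORFs (33.3% and 42.1%), 40.5% in shorter ones (33.3% and 48.1%) and 32.9% in those CDSs (29.1% and 35.9%). The long IGORFs lay between shorter IGORFs and CDSs in this measure. Its median also fell with length among the shorter IGORFs, from 40.7% at 63 to 99 nt to 39.2% at 204 to 300 nt. The part that length plays in both measures was not tested. GC content and the residue share are linked through the genetic code, since most hydrophobic residues have codons rich in T or A. Stop codons were TAA in 40.9%, TGA in 33.3% and TAG in 25.8%, against 46.1%, 30.5% and 23.5% in shorter IGORFs.

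The long frames overlap much other sequence. They cover 136.69 kb of distinct DNA for a summed length of 148.038 kb, since 89 of them share DNA with another in 53 pairs, 21 on the same strand and 32 on opposite strands. Both partners had a read in 2 of the pairs. Wholly inside 405 of the long IGORFs lay 1122 shorter frames of the same strand, counted once for each long IGORF that holds them. In 12 of these pairs in replicate 1 and 18 in replicate 2 the inner frame had more reads than the long frame around it. Over all IGORFs this held for 175 and 354 of 18709 such same-strand pairs, so it was not particular to the long frames. Reads were thus not counted in each frame that they lie over. The 405 had 25 and 123 reads in their own frame, or 0.174 and 0.857 per kilobase, against 17 and 117 reads, or 0.145 and 0.995 per kilobase, in the nested frames. The nested frame at NRD1 gave 73 of the 117. Without the 3 most read long IGORFs and all frames nested in them, a choice made after their values were seen, the long frames had 0.154 and 0.609 reads per kilobase and the nested ones 0.119 and 0.367, so in replicate 2 the order turned. Locus by locus, the long frame had more reads than the frames in it in 55 cases, fewer in 18, the same number in 10, and 322 had no read in either. The 414 long IGORFs with nested opposite-strand IGORFs had 0.232 and 1.05 reads per kilobase, against 0.211 and 0.703 in the 1709 nested ones. Without the 3 most read, the long ones had 0.165 and 0.598 and the nested ones 0.212 and 0.706, so the long frames were then lower in both libraries. Those 3 were picked for their own reads, and the nested reads stayed at 39 and 130 without them. Leaving them out could thus only lower the long frames against the nested ones, and it does not decide which strand is denser. The own frame had more reads in 59 cases and the opposite strand in 46. The densities are set side by side without a test, and the nested frames are shorter, while the class above 300 nt had the fewest reads per kilobase of all length classes.

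**Figure D4:**
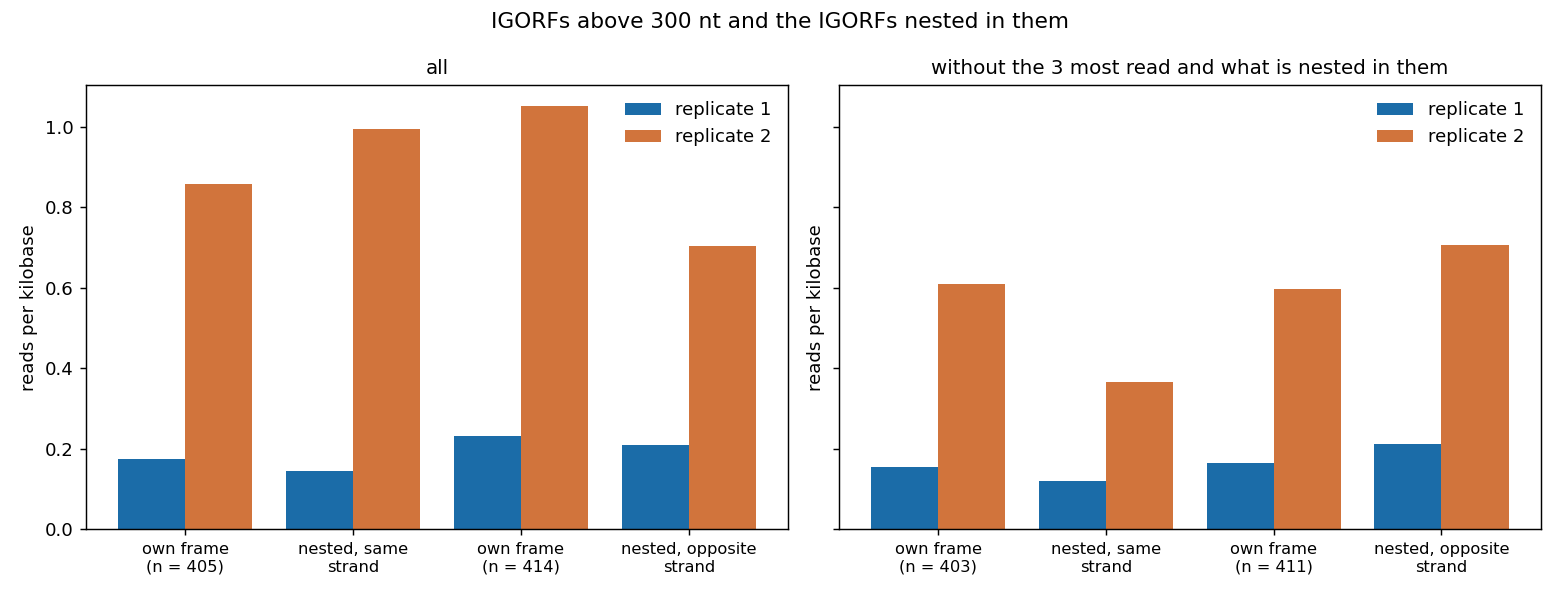
Reads per kilobase in replicate 1 and replicate 2 for the long IGORFs' own frames and for the IGORFs nested in them on the same and on the opposite strand, for all (left) and without the 3 most read long IGORFs and what is nested in them (right). On the right the own frame lies above the nested same-strand frames, 0.609 against 0.367 in replicate 2, and below the opposite-strand ones, 0.598 against 0.706.

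Long IGORFs were spread over all 16 chromosomes and both strands, 206 on plus and 212 on minus. Chromosomes IV and VII held the most, 56 and 54, and chromosome III the fewest, 6. Per megabase chromosome I had 73.8 and chromosome III 19.0. Within 30 kb of a chromosome end lay 55, or 13.2%, against 14.5% of shorter IGORFs, and these 55 had 0 reads in replicate 1 and 7 in replicate 2. Other annotated features were overlapped by 6 long IGORFs, 4 at 2 noncoding RNA genes, 1 at a small nucleolar RNA gene and 1 at the Ty1 repeat, and all 6 were listed at 0. At the length limit, the 21 IGORFs of 303 nt had 1 and 12 reads, and the 18 of 300 nt, just outside it, had 9 and 3. The reads at 303 nt lay in 1 frame in replicate 1 and 7 in replicate 2, and those at 300 nt in 1 frame in each library.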

How the data were processed

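Each library has deposited read counts, not normalised, for every IGORF and CDS, per the file headers. The submitters' processing notes name cutadapt, Bowtie, SAMtools and the build sacCer3, without versions or roles. The annotation, the counting tool and the handling of reads with several positions were not given there. Identifiers were read as 1-based coordinates on RefSeq's R64, which all 78989 IGORFs fit. Such counting steps decide which reads reach a frame. Depth was 4057 and 15116 IGORF reads.

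Position, sequence content and totals were computed in Python 3.11.15 (pandas 2.3.3, scipy 1.17.1). Translations were compared with annotated proteins, translated from R64, by blastp, and frames with the genome by blastn (BLAST 2.17.0). Shares have exact (Clopper-Pearson) 95% intervals. The binomial test was run on all IGORFs that averaged 10 reads or more, with a threshold of 0.05, and tested on simulated data. Those data varied by counting error alone around the split of the IGORF totals. They do not show how the test behaves at the spread of these libraries, where 49.0% of the 96 IGORFs tested differed. Other scalings used edgeR 4.0.16 and DESeq2 1.42.0 in R 4.3.3. Alternatives changed the length limit, minimum counts, distance, E-value, scaling and libraries.

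Members, lists and rules were chosen with earlier results of these data known. Frames named are those with 10 reads in both libraries, the 10 most read, the 5 longest, those that differ and those with a match of 90% identity; frames nested in or overlapping these, the 3 weaker protein matches and the long ATG-led frames were chosen after their values were seen. One of the 10 most read is not reported here.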

Additional observations from a re-analysis of the deposited data

How the results depend on the processing

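No paired analysis was possible because both libraries belong to 1 group. Of 62 alternatives over 14 results, 36 stayed within the spread or count, 24 moved and 2 turned the sign. Some moves had a direction fixed by the setting. A minimum of 3 reads can only lower the share with a read, and shorter distances only the share near a CDS. An ATG-led limit of 100 or 300 nt can only raise or lower that share. The limits of 250 and 400 nt hold 1366 and 56 frames in place of 418, so the share of reads must rise or fall. The tally is therefore not a test of robustness. For results given as mean and SD, each single library lies within the SD of the 2 by construction. Leaving 1 library out could therefore not count as moved for them, whatever the gap between the libraries. The share of long IGORFs with a read, 10.3%, was 1.20% with a minimum of 3 reads, and 5.74% to 14.8% with 1 library left out. Their share of IGORF reads, 0.928%, was 3.58% above 250 nt, 0.115% above 400 nt, 0.763% without overlaps with a CDS, 1.15% without the most read IGORF, 0.586% without the 3 most read members (chosen after seeing the data), and 0.838% to 1.02% with 1 library left out. The ratio of reads per kilobase, 0.532, was 0.747, 0.358, 0.457, 0.663 and 0.337 in the same order, and 0.480 to 0.584 with 1 library left out. It stayed under 1 in all, but some directions were fixed. CDS overlaps and the 3 most read members were left out of the long side alone. Both have more reads per kilobase than the long frames together, so this could only lower the ratio. Leaving out the most read IGORF, a shorter one, could only raise it. The single-library values are the 2 behind the mean. Long IGORFs with 10 reads in both libraries, 0, were 1 with a minimum of 3 reads, 1 above 250 nt, and 0 to 3 with 1 library left out. Those that differ between libraries, 0, were 2 with CDS totals, 2 with TMM and 2 with DESeq2 scaling, where 93, 75 and 74 of all 96 tested differed. As computed from these libraries, all 3 scalings expect fewer reads in replicate 2, relative to replicate 1, than the IGORF totals of 4057 and 15116 do. TMM gave effective sizes of 5935 and 10333, and DESeq2 gave factors of 0.816 and 1.22. The share near a same-strand CDS, 35.6%, was 21.1% within 100 nt, 12.9% within 50 nt and 44.6% above 400 nt. Protein matches, 1.67%, were 7.14% of the 56 IGORFs above 400 nt. An ATG-led part of 150 nt, 53.6%, became 62.2% at 100 nt, 2.63% at 300 nt and 46.4% above 400 nt. Without the 3 most read members and what is nested in them (chosen after seeing the data), the mean difference in reads per kilobase of long minus nested frames turned to 0.139 on the same strand, against -0.0542 with all, and to -0.0776 on the opposite strand, against 0.185 with all. On the opposite strand the 3 hold no nested reads, so leaving them out could only lower this difference. Beyond the scaling, the causes were not tested. With 34 and 154 reads in 418 frames, single members are mostly 1 or 2 reads, and depth limits any order among them.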

Other observations

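Some long IGORFs without reads hold short frames with reads on the other strand; these were picked after their values were seen. The IGORF on chromosome VIII from 101878 to 102186 was listed at 0 in both libraries, and the nested opposite-strand IGORF from 101891 to 101971 had 1 read in replicate 1 and 12 in replicate 2. On chromosome XIV, the IGORF from 341990 to 342304 was listed at 0, and the opposite-strand IGORF from 342005 to 342148 inside it had 4 and 8 reads. On chromosome V, the IGORF from 337531 to 337845 was listed at 0, and inside it lie 2 overlapping opposite-strand IGORFs. The one from 337573 to 337665 had 2 and 6 reads, and the one from 337622 to 337705 had 2 and 3.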
